A study of Mus musculus with 12 samples.

Results

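The comparison described here is that of the combination treatment (DAC+SFN) with the SFN single treatment in B16F10 cells, a mouse melanoma line, and it gives what DAC changed in cells that also received SFN. Its members were the 3 libraries labelled DAC_SFN and the 3 labelled SFN, 6 of the 12 RNA-seq libraries of the series, and both groups came from the same parental line with no genetic change named in the labels. In the combination treatment, cells received 25 nM DAC (5-aza-2'-deoxycytidine) for 72 h, the last 48 h of it together with 5 µM SFN (sulforaphane), while in the SFN single treatment they stood without drug for 24 h and then received SFN for 48 h. The dose of SFN is not given alike for these groups: the treatment protocol in the labels has 5 nM for SFN alone and 5 µM for the combination treatment, and the methods of the study have 5 µM for both, so that by the labels the groups would differ in SFN as well as in DAC. The DAC and the DMSO vehicle control libraries (3 each), from the same line, entered the same model, so that they bear on the replicate block and the spread behind each test, and they give the change with DAC in cells without SFN.

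DAC is a cytidine analog that is incorporated into DNA and traps DNA methyltransferases there, so that methylation is lost as cells divide. Loss of methylation in tumor cells is known to allow transcription of silenced germline genes and of repeats, whose RNA can be sensed by cytosolic receptors and lead to interferon-stimulated genes (ISGs). Incorporated DAC can also be read as DNA damage, to which p53 responds with genes that hold the cell cycle. SFN is an isothiocyanate of cruciferous vegetables that reacts with KEAP1 and so releases NRF2, a factor for detoxifying and antioxidant genes.

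Compared to SFN, the genes that rose with the combination treatment included interferon-stimulated genes and p53 targets, and the genes that fell included genes of DNA replication and mitosis. Of 11638 genes tested, 13 (0.112% of genes tested) passed an adjusted p-value under 0.05 with a fold change above 2, and each of them was higher with DAC+SFN. Among the 13 were Oasl2, Ddx60, Irf7, Irgm2, Rtp4, Usp18, Trim30a, Isg15, Ifit1, Oas1a, Rsad2 and Cxcl10, which stand on lists of interferon-related genes and chemokines, and Trim12c, a TRIM family gene on none of the lists. Without a threshold for the fold change, 109 genes were higher (0.937%) and 78 were lower (0.67%), together 187 (1.61%). All 187 moved the same way in each of the 3 replicate pairs, which a test with the replicate number as a block by itself favours. Of all genes tested, 23.4% were higher and 22.2% lower in all 3 pairs. The changes were small, with a median log2 fold change of 0.43 among the genes that rose and of -0.35 among those that fell. These calls came from edgeR's quasi-likelihood test over all genes with the replicate number as a block, and unadjusted p-values under 0.05 were found for 2072 genes (17.8%).

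The number of calls rested on single libraries. The 13 genes with a fold change above 2 became 1 without SFN replicate 1, 0 without SFN replicate 3, 1 without DAC+SFN replicate 1, 4 without DAC+SFN replicate 2, 19 without SFN replicate 2 and 26 without DAC+SFN replicate 3, and unadjusted p-values under 0.05 remained for between 1181 and 2706 genes. In each of these fits the 13 genes kept a positive log2 fold change, with a lowest value of 0.67. The libraries of replicate 2 stood apart from the others in both groups, at 20.2 and 24.2 on a first principal component that held 47.9% of the variance, where the other 4 libraries were at -0.298 or lower. Without the block, edgeR called 0 genes, with 893 genes at an unadjusted p-value under 0.05. Total counts lay between 20750610 and 27291436 in the 6 libraries. The melanocyte markers Mitf, Sox10, Tyr, Tyrp1, Dct, Pmel and Mlana were detected in all 6, whereas 17 markers of immune, endothelial, epithelial and stromal cells summed to 1.47 to 2.09 CPM (counts per 1e+06 counts of the library) with SFN and 1.5 to 2.30 CPM with DAC+SFN, and 8 of them, Ptprc among these, were at 0 in every one of the 6 libraries.

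Promoter windows of the genes above a fold change of 2 are shown because most of them hold the letters bound by interferon-regulated factors. RefSeq windows (GRCm38.p6, 250 bases before and 50 after the start) were found for 11 of the 13 genes. The core of the interferon-stimulated response element (ISRE), searched on both strands as GAAANNGAAA with overlaps allowed, was present in 9 of these 11 genes (81.8%), compared to 330 of 9405 tested genes with a window (3.51%) and 3.44% of all 32851 windows. Among all the genes that rose it was in 16 of 90 (17.8%), and among those that fell in 2 of 65 (3.08%). The windows are written 5' to 3' on the strand of the gene, with the ISRE letters or their reverse complement in capitals, on the chromosome positions given after each sequence.
Isg15: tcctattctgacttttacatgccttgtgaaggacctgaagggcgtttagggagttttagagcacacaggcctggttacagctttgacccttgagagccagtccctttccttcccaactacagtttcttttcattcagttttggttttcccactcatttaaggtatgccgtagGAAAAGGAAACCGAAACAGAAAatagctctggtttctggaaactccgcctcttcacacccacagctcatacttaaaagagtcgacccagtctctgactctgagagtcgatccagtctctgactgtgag
Ifit1: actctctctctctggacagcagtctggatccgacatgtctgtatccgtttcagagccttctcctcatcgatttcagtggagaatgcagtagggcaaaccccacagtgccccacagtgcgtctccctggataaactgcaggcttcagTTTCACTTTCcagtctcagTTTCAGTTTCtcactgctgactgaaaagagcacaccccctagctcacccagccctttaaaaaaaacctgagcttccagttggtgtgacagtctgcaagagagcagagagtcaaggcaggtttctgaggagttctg
Ddx60: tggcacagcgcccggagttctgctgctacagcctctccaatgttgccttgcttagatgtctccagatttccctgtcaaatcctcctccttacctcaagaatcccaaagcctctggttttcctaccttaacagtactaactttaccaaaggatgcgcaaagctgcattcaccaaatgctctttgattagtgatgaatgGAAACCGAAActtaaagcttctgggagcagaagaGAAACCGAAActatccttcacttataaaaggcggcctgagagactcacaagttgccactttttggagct
Oas1a: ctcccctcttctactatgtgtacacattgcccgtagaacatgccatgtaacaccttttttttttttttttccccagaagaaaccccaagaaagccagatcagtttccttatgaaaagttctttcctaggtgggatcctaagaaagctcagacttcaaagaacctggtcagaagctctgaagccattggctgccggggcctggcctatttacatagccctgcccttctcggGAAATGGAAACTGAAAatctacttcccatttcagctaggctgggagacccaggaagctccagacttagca
Cxcl10: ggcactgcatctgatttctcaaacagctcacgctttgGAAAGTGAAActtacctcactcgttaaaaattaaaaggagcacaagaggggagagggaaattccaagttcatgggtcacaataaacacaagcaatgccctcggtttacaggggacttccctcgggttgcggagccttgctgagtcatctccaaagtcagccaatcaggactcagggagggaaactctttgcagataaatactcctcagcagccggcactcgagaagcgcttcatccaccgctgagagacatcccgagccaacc
Irf7: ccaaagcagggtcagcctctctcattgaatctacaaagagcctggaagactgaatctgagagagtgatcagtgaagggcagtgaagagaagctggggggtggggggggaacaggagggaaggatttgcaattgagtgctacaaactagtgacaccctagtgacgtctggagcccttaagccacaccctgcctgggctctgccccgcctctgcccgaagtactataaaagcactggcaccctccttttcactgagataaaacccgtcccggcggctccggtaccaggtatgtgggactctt
These windows lie at chr4:156200769-156201068 (minus strand) for Isg15, chr19:34640639-34640938 (plus strand) for Ifit1, chr8:61927837-61928136 (plus strand) for Ddx60, chr5:120907476-120907775 (minus strand) for Oas1a, chr5:92348840-92349139 (minus strand) for Cxcl10 and chr7:141266375-141266674 (minus strand) for Irf7. In the Isg15 window 3 overlapping cores began 78, 72 and 66 bases before the start, and in that of Oas1a 2 overlapping cores began 20 and 14 bases before it. The Ifit1 cores began 104 and 85 bases and those of Ddx60 53 and 19 bases before the start, whereas the single core of Cxcl10 lay 213 bases before it. No core stood in the windows of Irf7 and Oasl2. The windows of the 11 genes were also poor in CpG, the dinucleotide that DNA methyltransferases modify, with a median of 6 per window. It was 20.5 for all genes that rose, 22 for those that fell and 21 for all tested genes. The lists of antiviral effectors and interferon-inducible GTPases, called or not, had medians of 4 and 8, so that low CpG was not limited to called genes. A match of letters is a description of the sequence, and neither binding nor methylation was measured.

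Antiviral effectors, the ISG products that act on viral RNA and proteins, carried most of the larger changes. Of 28 listed genes 26 were tested, 7 of them rose and the other 19 did not pass the test, although all 26 had a log2 fold change above 0 (51.3% of all tested genes did). The median log2 fold change of the list was 0.84, compared to 0.0048 over all genes. Oasl2, an oligoadenylate synthetase-like protein, was at 2.16, 0.527 and 3.64 CPM in SFN replicates 1 to 3 and at 5.46, 2.39 and 8.41 CPM in the DAC+SFN replicates of the same number. Each pair thus rose while the groups overlapped, since DAC+SFN replicate 2 stayed under SFN replicate 3, and the log2 fold change was 1.51 (adjusted p = 0.0428, SE 0.34). Ddx60, a helicase that assists RNA sensing, was at 1.51, 0.715 and 1.84 CPM with SFN and at 2.64, 2.30 and 6.72 CPM with DAC+SFN. All 3 combination libraries lay above all 3 SFN libraries, with a log2 fold change of 1.49 (adjusted p = 0.0279, SE 0.30).

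Ifit1, which binds foreign RNA ends, was clearly separated between the groups. Its values were 19.4, 14.6 and 20.1 CPM with SFN and 39.4, 28.4 and 49.8 CPM with DAC+SFN, which did not overlap, and its log2 fold change was 1.09 (adjusted p = 0.0272, SE 0.20). Groups without overlap and with DAC+SFN higher were found for 5.23% of all genes tested. Rsad2, the gene of the antiviral enzyme viperin, was at 33.3, 17.3 and 29.6 CPM with SFN and 46.6, 39.3 and 85.8 CPM with DAC+SFN. Its pair differences on the log2 scale were 0.48, 1.17 and 1.53, so that replicate 1 moved least, and its log2 fold change was 1.07 (adjusted p = 0.0279, SE 0.21). Oas1a, which makes the second messenger of RNase L, rose by a log2 fold change of 1.08 (adjusted p = 0.0263), Rtp4 by 1.18 (0.0372) and Trim30a by 1.13 (0.0396), and in these 3 genes replicate 2 had the lowest and replicate 3 the highest CPM in both groups. Among members that did not pass, Mx1 had a log2 fold change of 0.90 (adjusted p = 0.068) and Ifit3 of 0.89 (0.064).

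**Figure D1:**
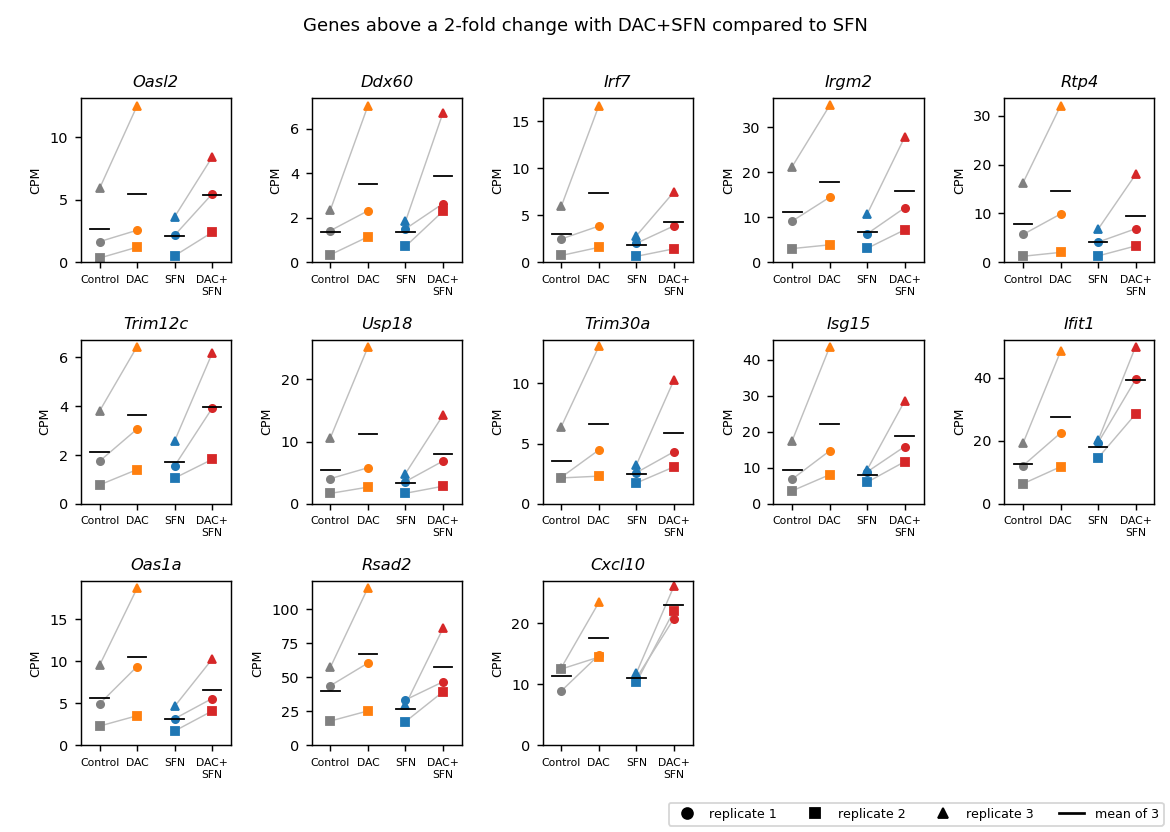
CPM of the 13 genes above a 2-fold change in each of the 12 libraries, with 1 panel per gene, grey lines between replicates of the same number and black bars at the mean of 3. In each panel the 3 lines from SFN to DAC+SFN go up, and for most genes replicate 3 (triangles) is highest and replicate 2 (squares) lowest in every group; for Cxcl10 the SFN libraries sit between 10.3 and 11.9 CPM and the DAC+SFN libraries between 20.8 and 26.1 CPM.

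The differences were larger in pair 3 than in pairs 1 and 2. The median difference within pairs over the 26 antiviral effectors was 0.59, 0.76 and 1.15 for replicates 1, 2 and 3, and 22 of the 26 were higher in all 3 pairs (23.4% of all tested genes were). Without SFN replicate 3 the median of the list was 0.47, and over all fits with 1 library left out it lay between 0.47 and 1.09. The 7 calls became 0 without SFN replicate 1, SFN replicate 3 or DAC+SFN replicate 1, 1 without DAC+SFN replicate 2, 9 without SFN replicate 2 and 13 without DAC+SFN replicate 3. DESeq2's Wald test called 12 members, all higher. The RNA of a bulk library does not separate more cells that express a gene from more RNA per cell.

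ISG15 conjugation, the attachment of the ubiquitin-like ISG15 to proteins, had 3 of 6 members higher and none lower, with a median log2 fold change of 0.48. Isg15 itself was at 8.89, 6.02 and 9.53 CPM with SFN and at 15.9, 11.7 and 28.6 CPM with DAC+SFN. The lowest DAC+SFN library lay above the highest SFN library, and the log2 fold change was 1.13 (adjusted p = 0.0422, SE 0.25). Usp18, the protease that removes ISG15 and also dampens the interferon receptor, rose by 1.15 on the log2 scale (adjusted p = 0.0471) and Trim25, an E3 ligase that activates RIG-I, by 0.64 (adjusted p = 0.0322). DESeq2 called Usp18 and Trim25 but not Isg15 (adjusted p = 0.0584). The adjusted p-value of Isg15 in edgeR lay between 0.0122 and 0.289 over the fits with 1 library left out, and 4 of these 6 lost the call.

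The main receptors of cytosolic RNA rose. Of 11 tested genes of nucleic acid sensing 3 rose and 0 fell: Ddx58 (RIG-I), Ifih1 (MDA5) and Adar, which edits double-stranded RNA. Ddx58 was at 40.2, 22.5 and 42.7 CPM with SFN and at 66.9, 37.1 and 97.5 CPM with DAC+SFN. The groups overlapped because replicate 2 was low in both, whereas each pair rose, and the log2 fold change was 0.88 (adjusted p = 0.0223, SE 0.14). Ifih1 rose by 0.76 (adjusted p = 0.0278) and Adar by 0.39 (adjusted p = 0.0483). The adaptors and kinases Mavs, Tmem173 (STING), Ticam1 and Tbk1 had log2 fold changes between -0.02 and 0.11, and the median of the list was 0.11. Cgas was not among the symbols analysed here.

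In interferon signalling 2 of 19 tested genes rose and 0 fell. Irf7, the factor that amplifies interferon responses, rose from 2.02, 0.640 and 2.82 CPM to 3.87, 1.44 and 7.47 CPM in replicates 1 to 3, with a log2 fold change of 1.21 (adjusted p = 0.0471, SE 0.28). Parp14, an ISG and ADP-ribosyltransferase, rose by 0.80 (adjusted p = 0.0453). The median of the list was 0.059. Stat2 and Irf9, transcription factors of the interferon response, had log2 fold changes of 0.43 and 0.57 with adjusted p-values of 0.082 and 0.076 in edgeR, and DESeq2 called both. The receptor genes Ifnar1, Ifnar2, Ifngr1 and Ifngr2 had values between -0.11 and 0.04. Interferon beta (Ifnb1) was nearly absent, with 1 count over the 3 SFN libraries and 6 over the 3 DAC+SFN libraries.

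The interferon-inducible GTPases, which attack membranes around intracellular pathogens, had 2 of 9 tested members higher and a median log2 fold change of 0.76. With 1 library left out this median lay between 0.36 (without SFN replicate 3) and 1.04 (without SFN replicate 2). Irgm2 was at 6.35, 3.12 and 10.8 CPM with SFN and at 12.1, 7.23 and 27.8 CPM with DAC+SFN. Its pair differences of 0.92, 1.19 and 1.36 were alike although the replicates differed in level, and the log2 fold change was 1.19 (adjusted p = 0.0223, SE 0.20). Irgm1 rose by 0.63 (adjusted p = 0.0491), and the other 7 members had positive values, Gbp7 with 0.76 (adjusted p = 0.0687). DESeq2 called Irgm2 and Gbp7 but not Irgm1 (adjusted p = 0.0803). The ISRE core was in the windows of 6 of 7 members (85.7%), with Irgm2 among them, and in 10 of 19 antiviral effectors (52.6%).

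Antigen presentation by MHC class I, often raised by interferon, did not pass the test. Of 15 tested genes edgeR called 0 (6 at an unadjusted p-value under 0.05), DESeq2 called Tapbp, and the median log2 fold change was 0.17. Tap1, which carries peptides into the endoplasmic reticulum, was at 12, 12.6 and 9.85 CPM with SFN and 17.5, 16.9 and 17.0 CPM with DAC+SFN. These groups did not overlap, with a log2 fold change of 0.57 (adjusted p = 0.111, SE 0.18). Tapbp had 0.39 (adjusted p = 0.0692), B2m 0.19 (0.219) and H2-K1 0.08 (0.902).

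**Figure D2:**
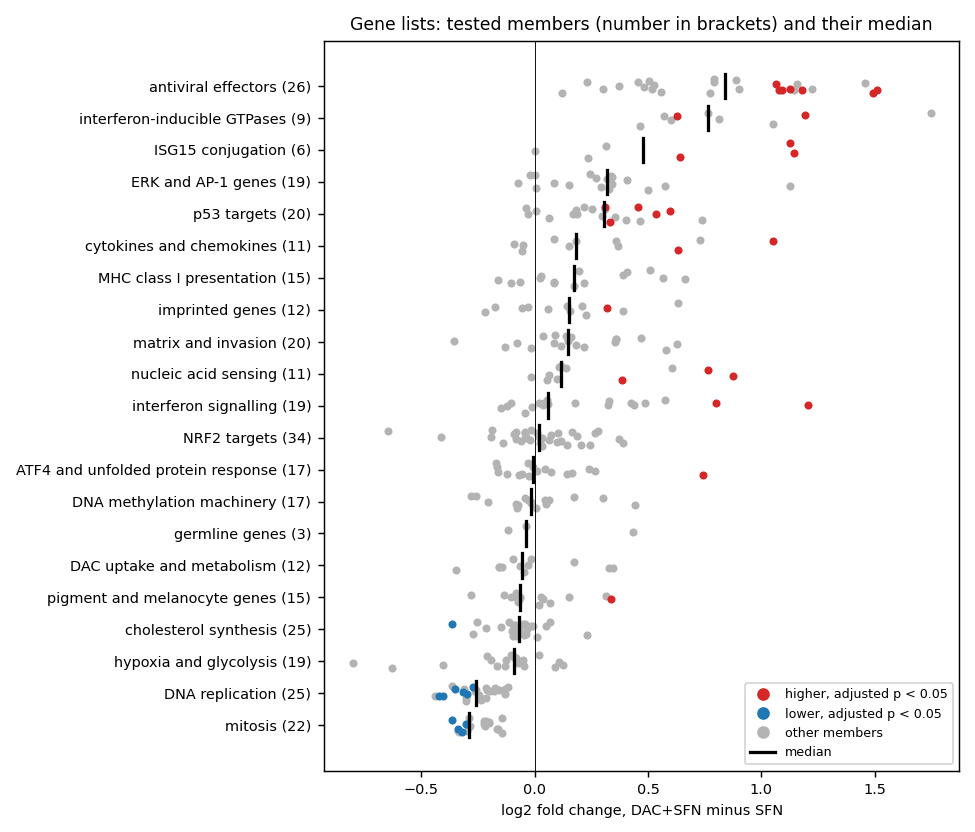
Log2 fold change (DAC+SFN minus SFN, x axis) of each tested member of 21 gene lists (y axis, number tested in brackets), in red or blue where the adjusted p-value was under 0.05, with a black bar at the list's median. The antiviral effectors have the highest median (0.84), and all members of DNA replication and mitosis lie under 0.

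Among cytokines and chemokines, 2 of 11 tested genes rose and 0 fell. Cxcl10, a chemokine that draws T cells and NK cells, had the smallest SE of the 13 genes above a 2-fold change. It was at 11, 10.3 and 11.9 CPM with SFN and at 20.8, 22.1 and 26.1 CPM with DAC+SFN, and the groups stood far apart, with a log2 fold change of 1.05 (adjusted p = 0.00345, SE 0.13). Among the fits with 1 library left out its call was lost without SFN replicate 3 (adjusted p = 0.0921, the highest of the 6), where the fitted values ranged between 0.96 and 1.16. Lif, a cytokine of the interleukin-6 family, was at 4.75, 15.0 and 6.17 CPM with SFN and at 9.56, 23.6 and 7.14 CPM with DAC+SFN. Replicate 2 was the highest in both groups, the pair differences were 0.99, 0.65 and 0.21, and the log2 fold change was 0.63 (adjusted p = 0.0471, SE 0.15), a call that 5 of 6 fits with 1 library left out did not keep.

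Ccl5, a chemokine for T cells and monocytes, just missed the threshold. Its values were 13.7, 8.58 and 9.40 CPM with SFN and 21.2, 14.9 and 16.2 CPM with DAC+SFN. The lowest DAC+SFN library was above the highest SFN library, and the log2 fold change was 0.73 (95% interval 0.35 to 1.11, adjusted p = 0.0533, SE 0.18), while DESeq2 called it. Il33, an alarmin, had a log2 fold change of 0.37 (adjusted p = 0.208). Another 17 listed cytokines were too low to test and did not exceed 29 counts in a library.

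The genes that rose also held p53 targets. Of 20 tested targets 5 rose, 0 fell and 18 had a positive value, with a median log2 fold change of 0.30. With SFN compared to control, 13 of the 20 were also higher, with a median of 0.42. Whether a difference in SFN between the groups added to the rise was not tested. Trp53inp1, a stress-induced p53 cofactor, had the smallest adjusted p-value of all genes tested. It was at 249.995, 244 and 242 CPM with SFN and at 357, 325 and 389 CPM with DAC+SFN. The SFN libraries were nearly equal and all DAC+SFN libraries lay above them, with a log2 fold change of 0.54 (adjusted p = 0.00235, SE 0.059). Btg2, an antiproliferative gene, was at 23.2, 37.7 and 31.6 CPM with SFN and at 46.0, 49.2 and 41.5 CPM with DAC+SFN, and rose by 0.60 (adjusted p = 0.0491, SE 0.14). Plk2, a stress kinase, rose by 0.46 (adjusted p = 0.0223), the death receptor Tnfrsf10b by 0.33 (0.0469) and the cyclin Ccng1 by 0.31 (0.043). The median pair differences of the list were 0.44, 0.20 and 0.21. The 5 calls became 1 without SFN replicate 1 or DAC+SFN replicate 1, 2 without SFN replicate 2, 0 without SFN replicate 3, 4 without DAC+SFN replicate 2 and 10 without DAC+SFN replicate 3.

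Among genes of DNA replication, those that passed the test fell. Each of the 25 listed genes had a negative log2 fold change, 6 fell (Tk1, Cdc45, Fen1, Lig1, Pcna and Ccne2) and 18 had groups without overlap (6.86% of all genes tested did in this direction), with a median of -0.26. Tk1, the thymidine kinase of the salvage pathway, was at 188, 172 and 202 CPM with SFN and at 131, 143 and 146 CPM with DAC+SFN. All combination libraries lay under all SFN libraries, and the log2 fold change was -0.42 (adjusted p = 0.0223, SE 0.066). Pcna, the sliding clamp, was at 412, 378 and 435 CPM with SFN and at 315, 311 and 371 CPM with DAC+SFN, with a log2 fold change of -0.30 (adjusted p = 0.0471, SE 0.070). Cdc45 of the replicative helicase fell by 0.40 on the log2 scale (adjusted p = 0.0243), the flap endonuclease Fen1 by 0.27 (0.0278), the ligase Lig1 by 0.32 (0.0453) and the cyclin Ccne2 by 0.35 (0.0489). Dut, which removes dUTP and stands on no list, fell by 0.40 (adjusted p = 0.0223).

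In mitosis, 4 of 22 genes fell. All 22 had a negative value, with a median of -0.29, and those that passed the test were Aurka, Aurkb, Birc5 and Plk1. Aurka, a kinase of the spindle poles, was at 118, 123 and 115 CPM with SFN and at 89.8, 108 and 88.7 CPM with DAC+SFN, without overlap, and had a log2 fold change of -0.32 (adjusted p = 0.0247, SE 0.058). Plk1, another mitotic kinase, fell by 0.30 (adjusted p = 0.0318), Aurkb by 0.34 (0.0272) and Birc5 (survivin) by 0.37 (0.031). Off the lists, the gene with the lowest adjusted p-value among those that fell was Mxd3, a MAX-binding repressor of the MYC network, at 23.7, 22.5 and 23.9 CPM with SFN and 13.2, 16.5 and 14.9 CPM with DAC+SFN. The SFN libraries were close together and the log2 fold change was -0.66 (adjusted p = 0.0125, SE 0.093). Hmgb2, Cenpa, E2f8, Cdca3 and Pbk, genes of chromatin and cell division, fell by 0.50, 0.37, 0.40, 0.35 and 0.55.

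The calls in replication and mitosis also depended on the libraries used, whereas the signs did not. The 6 replication calls became 0 without SFN replicate 1, SFN replicate 3 or DAC+SFN replicate 1, 2 without DAC+SFN replicate 2, 9 without SFN replicate 2 and 18 without DAC+SFN replicate 3. In mitosis the 4 calls became 0, 0 and 0 in the same 3 fits, 1 without DAC+SFN replicate 2, 4 without SFN replicate 2 and 17 without DAC+SFN replicate 3. All 25 and all 22 genes had a negative value in each of these 6 fits, and DESeq2 called 10 and 12 of them. The cell cycle genes homology region (CHR), searched as TTTGAA or TTCGAA on both strands, was in the windows of 13 of 19 mitosis genes (68.4%) and of 25 of 65 genes that fell (38.5%), compared to 16.2% of tested genes. In Plk1 it begins at base 31 and in Aurka at base 33, counting the start as base 1, whereas the window of Birc5 held none. The window of Plk1 (chr7:122159185-122159484, plus strand) is given with the CHR in capitals.
Plk1: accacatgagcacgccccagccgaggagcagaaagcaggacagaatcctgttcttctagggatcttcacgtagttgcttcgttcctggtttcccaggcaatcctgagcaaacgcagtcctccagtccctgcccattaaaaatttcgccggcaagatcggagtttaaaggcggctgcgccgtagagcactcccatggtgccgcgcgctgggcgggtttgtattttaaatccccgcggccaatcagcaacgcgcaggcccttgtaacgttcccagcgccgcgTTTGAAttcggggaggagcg
An E2F site, searched as TTTCCCGC or TTTGGCGC on both strands, was in 7 of 19 replication genes (36.8%) and 3.60% of tested genes, although not in the windows of Tk1, Cdc45, Fen1, Lig1 or Pcna.

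**Figure D3:**
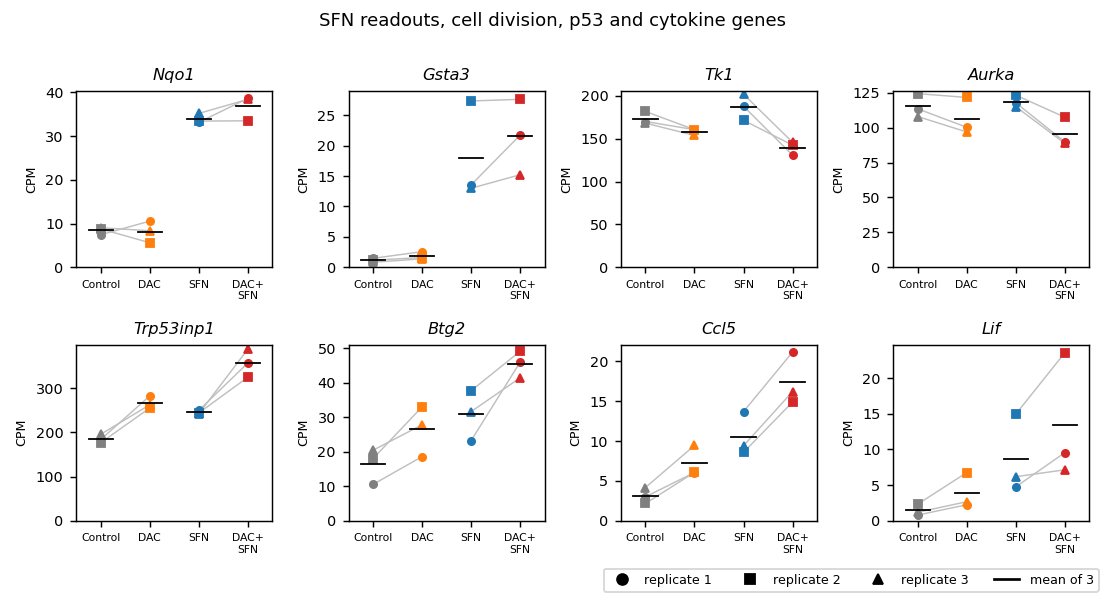
CPM in each of the 12 libraries for Nqo1, Gsta3, Tk1, Aurka, Trp53inp1, Btg2, Ccl5 and Lif, with 1 panel per gene, grey lines between replicates of the same number and black bars at the mean of 3. Tk1 and Aurka go down and Trp53inp1, Btg2, Ccl5 and Lif go up in all 3 pairs from SFN to DAC+SFN, and Nqo1 stands between 33.2 and 38.6 CPM in all 6 of these libraries.

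Longer transcripts were higher with DAC+SFN and shorter ones lower, across the whole transcriptome. The median longest transcript was 5432 bases for genes that rose, 2166.5 bases for genes that fell and 3463.5 bases for all genes tested. In the quintile with the shortest transcripts 10 genes rose and 36 fell, and in the quintile with the longest 56 rose and 2 fell. The Spearman correlation of the log2 fold change with length was 0.28 across 11590 genes, which are not independent replicates, and it was 0.21, 0.049 and 0.38 within pairs 1, 2 and 3. For DAC minus control and SFN minus control it was -0.15 and -0.11. The 13 genes above a 2-fold change had a median of 3123 bases, and the replication and mitosis lists 3381 and 3473.5 bases. The called members of these 2 lists had from 1518 (Pcna) to 3334 bases (Birc5), under the median of all genes tested. With the trend removed from each library, an alternative chosen after seeing the data, the 13 genes were still called, 53 genes rose and 49 fell in all, and 2 p53 targets, 3 replication genes and 7 mitosis genes were called. What set the trend with length was not tested.

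**Figure D4:**
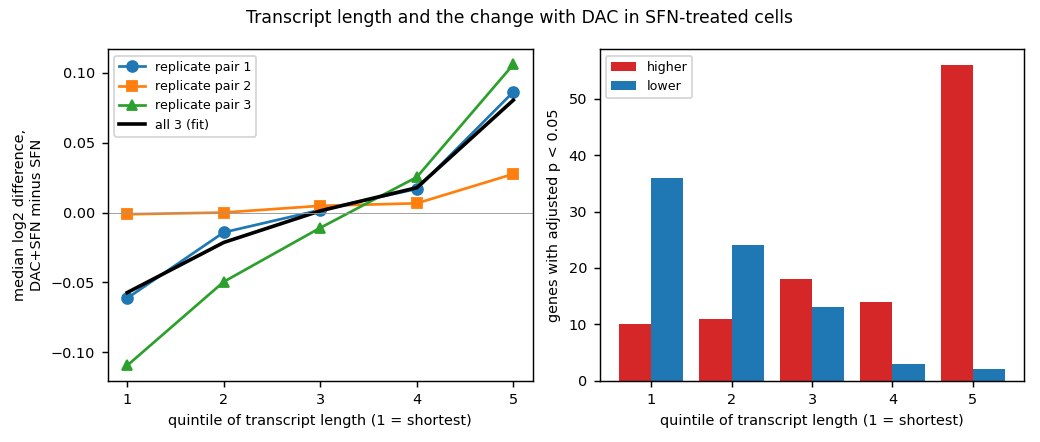
Left, median log2 difference (DAC+SFN minus SFN) of genes in 5 quintiles of transcript length (x axis, 1 = shortest), for each replicate pair (coloured lines) and for the fit over all 3 (black). Right, number of genes in each quintile with an adjusted p-value under 0.05, higher in red and lower in blue: 36 of the genes that fell are in the shortest quintile and 56 of those that rose in the longest.

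As a list, NRF2 targets, the readout of SFN itself, hardly differed between the groups, and no target passed the test in edgeR. Of 34 tested targets edgeR called 0 (5 at an unadjusted p-value under 0.05), DESeq2 called Gsta2 and Txn1 as lower, and the median log2 fold change was 0.021. Nqo1, a quinone reductase used as a marker of NRF2, was at 33.2, 33.5 and 35.2 CPM with SFN and at 38.6, 33.5 and 38.4 CPM with DAC+SFN. The groups overlapped, and the 95% interval of the log2 difference was -0.15 to 0.38. In the control libraries it was at 7.45, 8.78 and 9.04 CPM, so that the libraries labelled with 5 nM SFN were above control by a log2 fold change of 2.01 (adjusted p = 1.16e-06). Gsta3, a glutathione transferase, was at 13.6, 27.4 and 13 CPM with SFN and at 21.8, 27.6 and 15.2 CPM with DAC+SFN, and the interval of the difference was -0.08 to 0.64. With SFN compared to control, 20 of the 34 targets were higher (8.27% of all genes were). The dose itself was not measured, and a difference in SFN between the groups cannot be told apart from the addition of DAC.

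The enzymes that DAC acts on did not pass the test at the RNA level. Of 17 tested genes of DNA methylation and its readers edgeR called 0 (5 at an unadjusted p-value under 0.05), while DESeq2 called Zbtb38 higher and Uhrf1 lower. Dnmt1, the maintenance methyltransferase, was at 376, 378 and 349 CPM with SFN and at 355, 356 and 330 CPM with DAC+SFN, with a log2 fold change of -0.08 (adjusted p = 0.471). Uhrf1, which recruits DNMT1 to replicating DNA, was at 405, 427 and 436 CPM with SFN and at 321, 352 and 372 CPM with DAC+SFN. Its groups did not overlap, and it had a log2 fold change of -0.28 (adjusted p = 0.0522), near the median of the replication genes. Dck, the kinase that activates DAC, had -0.35 (adjusted p = 0.0553), and of 12 genes of DAC uptake and metabolism edgeR called 0 (4 at an unadjusted p-value under 0.05) and DESeq2 called Dck alone.

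Germline genes, classic targets of demethylating drugs, were mostly too low to test. Only Ddx4, Xlr3a and Brdt of 28 listed genes could be tested, and none of them passed, with log2 fold changes of 0.43, -0.12 and -0.04 and an unadjusted p-value under 0.05 for 0 of them in edgeR and 0 calls in DESeq2. The other 25 did not exceed 25 counts in a library and summed to 15 to 50 counts per library with SFN and 31 to 50 with DAC+SFN, and 14 of them were at 0 in all 6 libraries. No germline response was therefore seen, and changes among the 25 genes below the filter were not tested. Among 12 tested imprinted genes, Mest rose from 78.2, 87.5 and 80.6 CPM to 104, 108 and 95 CPM, with a log2 fold change of 0.32 (adjusted p = 0.0339), and none fell. Reads of repeats were not analysed here, since only reads on known genes were counted.

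The other lists of the melanoma cells held few calls. Of 15 pigment genes only Oca2, a melanosome transporter, passed the test (log2 fold change 0.33, adjusted p = 0.0272), and Dct had -0.14, Tyrp1 -0.11 and Mitf -0.07. Cholesterol synthesis had 1 of 25 genes called, Pmvk, which fell by 0.36 (adjusted p = 0.0491). Atf3, a stress-induced transcription factor, was the only one of 17 genes of the ATF4 and unfolded protein response to pass. It was at 7.90, 14.5 and 10.9 CPM with SFN and at 16.0, 21.1 and 17.7 CPM with DAC+SFN, without overlap, and rose by 0.74 (adjusted p = 0.0223, SE 0.12). The 19 ERK and AP-1 genes had a median of 0.32 with 0 calls in edgeR (6 at an unadjusted p-value under 0.05) and Ccnd1 alone in DESeq2, and their median pair differences of 0.50, 0.20 and -0.02 differed by replicate. Dusp15, a phosphatase of that list, was at 0.659, 0.489 and 0.695 CPM with SFN and at 1.41, 1.34 and 1.21 CPM with DAC+SFN, without overlap, and had a log2 fold change of 1.13 with a wide interval of 0.23 to 2.03 (adjusted p = 0.175). Hypoxia (19 genes) and matrix genes (20 genes) had 0 calls in both edgeR and DESeq2, with 1 and 5 genes at an unadjusted p-value under 0.05.

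Outside the lists, the genes that rose with the lowest adjusted p-values were of mixed function. Cpz, a carboxypeptidase of the extracellular matrix, was at 9.36, 13.8 and 11.4 CPM with SFN and at 19.12, 22 and 18.5 CPM with DAC+SFN, without overlap, and rose by 0.80 (adjusted p = 0.0116, SE 0.11). Trim56, an E3 ligase of antiviral defense, was at 11.2, 10.8 and 12 CPM with SFN and at 19.4, 15.1 and 20.4 CPM with DAC+SFN, and rose by 0.68 (adjusted p = 0.0223, SE 0.11). Ablim1, an actin-binding protein, Lpin1, a phosphatidate phosphatase, and 9030617O03Rik rose by 0.47, 0.52 and 0.57, each with an adjusted p-value of 0.0188 to 0.0223. Trim12c was at 1.55, 1.05 and 2.58 CPM with SFN and at 3.91, 1.82 and 6.16 CPM with DAC+SFN, and it has close relatives in the same cluster on chromosome 7, between which unique reads may be split.

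In cells without SFN, most of these genes had the same sign of change with DAC, although few passed the test there. The values come from the DAC and control libraries, which share the model and the replicate numbers with the others. All 13 genes above a 2-fold change, 89 of the 109 that rose and 76 of the 78 that fell had the same sign for DAC minus control (51.9% of all genes were above 0 there). The median over the 13 genes was 1.15 with SFN present and 0.89 without, over the genes that rose 0.43 and 0.20, and over those that fell -0.35 and -0.14. The genes were chosen for their change in SFN-treated cells, which by itself favours a larger first value in each of these pairs. In cells without SFN 21 genes rose with DAC (0.18%), and these held 0 of the 13 genes above a 2-fold change, 0 of the 78 that fell and 8 of the 109 that rose: Trp53inp1, Cpz, 9030617O03Rik, Plk2, Mest, Lif and, named after their values were seen, Tmem140 and Ifitm3. The antiviral effectors had a median of 0.84 with SFN and 0.83 without, the p53 targets 0.30 and 0.35, the replication genes -0.26 and -0.13 and the mitosis genes -0.29 and -0.19.

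**Figure D5:**
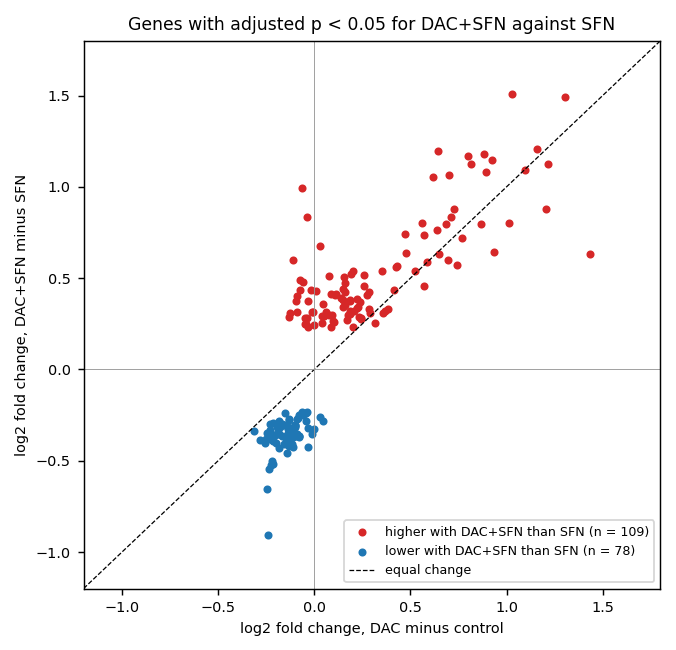
Log2 fold change with DAC in cells without SFN (x axis, DAC minus control) and in cells with SFN (y axis, DAC+SFN minus SFN) for the 109 genes higher (red) and 78 lower (blue) in the latter, with a dashed line at equal change. All 13 genes above 1 on the y axis are right of 0 on the x axis, as are 89 of the 109 genes in red, and the genes were chosen on the y axis.

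With the filter on low counts, no gene passed the test of a different response to DAC with and without SFN. The interaction of DAC and SFN passed an adjusted p-value under 0.05 for 0 genes in edgeR (683 genes, 5.87%, at an unadjusted p-value under 0.05) and for 0 genes in DESeq2 (505 genes). Without the filter, edgeR called 1 gene, D830031N03Rik (adjusted p = 0.0413, compared to 0.770 with the filter). For Isg15 the difference between both responses was -0.09 on the log2 scale with a 95% interval of -0.84 to 0.66, and for Cxcl10 it was 0.43 with an interval of 0.05 to 0.82 (adjusted p = 0.847). For Trp53inp1 it was 0.01 with an interval of -0.17 to 0.19, and for Tk1 -0.29 with an interval of -0.49 to -0.09 (adjusted p = 0.847). For Lif the difference was -0.80 (interval -1.36 to -0.25, adjusted p = 0.847) and for Trim56 0.65 (interval 0.31 to 0.99, adjusted p = 0.817), and neither passed the test.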

How the data were processed

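RNA of B16F10 cells was sequenced as 75-base single-end reads from stranded mRNA libraries, 3 replicates in each of 4 groups, described in the study's methods as independent biological repeats. The authors deposited whole-number counts per gene symbol without normalization: reads were checked with FastQC 0.11.7, trimmed with Trimmomatic 0.38, aligned to mm10 with TopHat 2.1.1 and counted with htseq, and only uniquely aligned reads on known genes were kept. The annotation and the strand setting of the counting are not given in the sources used here, so overlapping and antisense genes may share reads.

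From the deposited counts, the 11638 of 24421 symbols that reached 1 CPM (16 to 27 counts) in 3 or more libraries were scaled by TMM and tested two-sided with glmQLFTest (legacy quasi-likelihood fit, edgeR 4.0.16, R 4.3.3), with all 12 libraries in 1 model, the replicate number as a block and Benjamini-Hochberg adjustment over all genes. Calls needed an adjusted p-value under 0.05, with or without a fold change above 2. Log2 fold changes carry a prior count of 0.125 and pair differences one of 2, and SE is the log2 fold change over the square root of F. The study's methods correct for a batch that they do not define. The replicate numbers pair the libraries, and the library numbers in the labels follow the replicate number. Deviations from the group means correlated by 0.473, 0.726 and 0.683 between SFN and DAC+SFN libraries of the same number. Between libraries of different number they correlated by at most 0.065. Those low values are in part forced, since the deviations within a group sum to 0. Within the SFN and the DAC+SFN groups no library copied another, as chi-square values per gene between replicates were 12.6 to 34.1. Other pairs of libraries were not compared in this way.

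The comparison and the 22 gene lists (472 genes) were chosen with earlier results of these data known. The text names the called genes above a 2-fold change, the 10 genes in each direction with the smallest adjusted p-value that moved alike in 3 pairs, of each list the called members and the 3 with the smallest p-values, Ccl5, Dusp15, Il33, Dnmt1, Nqo1 and Gsta3, and cell type markers. Other list members and genes off the lists were named after their values were seen, and some results for single genes are left out. Transcript lengths came from GENCODE M21 (mm10) and promoter windows from RefSeq (GRCm38.p6), in which Rtp4 and Usp18 had no window. The alternatives were other size factors, DESeq2 1.42.0, the edgeR version 4 fit, no filter, at least 10 counts in every library, no block, only the 6 libraries compared, a prior count of 2, a robust fit, no fold change threshold, glmTreat, unadjusted p-values, each library left out, and, chosen after seeing the data, trends with transcript length and GC removed and replicates 1 and 3 alone. Figures were drawn with matplotlib 3.10.9.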

Additional observations from a re-analysis of the deposited data

Results flagged for a closer look

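In 2 of the 98 named genes (2.04%), all 3 replicate pairs differed one way with DAC in SFN-treated cells and the opposite way in cells without SFN, as did 437 of all 11638 genes tested (3.75%). Xlr3a, an X-linked germline gene, was lower in the 3 pairs with SFN (pair differences -0.22, -0.07 and -0.05) and higher in the 3 pairs without it, and the interaction, the test of this difference, was -0.264 with a 95% interval of -0.57 to 0.04 (adjusted p = 0.903). Pdgfra, a growth factor receptor that is also a stromal marker, had pair differences of 0.01, 0.25 and 0.05 with SFN and was lower with DAC in all 3 pairs without SFN, and the interaction was 0.601 with an interval of -0.11 to 1.31 (adjusted p = 0.903) at 1.22 to 1.82 CPM in the 6 libraries. Neither difference passed the test.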

How the results depend on the processing

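The signs were more stable than the calls: the 13 genes above a 2-fold change stayed positive and all 25 replication and 22 mitosis genes negative in each of the other 18 fits (with at least 10 counts in every library, 11 of the 13 could be tested), and of 98 named genes none reversed under other size factors, DESeq2, other filters or no block. Without the replicate block, 0 genes were called, and 0 members of the antiviral effectors, p53 targets, DNA replication and mitosis. The count of 13 became 23 without a filter, 27 with only the 6 libraries compared, 8 with a robust fit, 1 with replicates 1 and 3 alone, 187 without a fold change threshold, 33 at an unadjusted p-value, 0 with glmTreat (3 at an unadjusted p-value) and 0 to 26 with 1 library left out. The 109 genes that rose became 226 with DESeq2, 241 without a filter, 0 without the block, 678 with 6 libraries, 53 with the length trend removed, 3 with replicates 1 and 3 and 0 to 355 with 1 library left out. The 78 genes that fell became 162 with DESeq2, 245 without a filter, 0 without the block, 543 with 6 libraries, 49 with the length trend removed, 219 with length and GC removed, 0 with replicates 1 and 3 and 0 to 348 with 1 library left out.

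The 7 antiviral effectors became 12 with DESeq2, 18 without a filter, 20 with 6 libraries, 3 with a robust fit, 15 with length and GC removed, 0 with replicates 1 and 3 and 0 to 13 with 1 library left out. The 5 p53 targets became 9 without a filter, 16 with 6 libraries, 2 with length removed, 10 with length and GC removed, 1 with replicates 1 and 3 and 0 to 10 with 1 library left out. The 6 replication genes became 10 with DESeq2, 15 without a filter, 22 with 6 libraries, 3 with length removed, 13 with length and GC removed, 0 with replicates 1 and 3 and 0 to 18 with 1 library left out. The 4 mitosis genes became 12 with DESeq2, 14 without a filter, 19 with 6 libraries, 7 with length removed, 15 with length and GC removed, 0 with replicates 1 and 3 and 0 to 17 with 1 library left out. Without a filter the interaction had 1 gene, D830031N03Rik (adjusted p = 0.0413, 0.770 with the filter).

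List medians moved by more than the spread between pairs in 16 of 357 cases. With 1 library left out they ranged between 0.47 and 1.09 for antiviral effectors, 0.093 and 0.18 for nucleic acid sensing, 0.046 and 0.18 for interferon signalling, 0.13 and 0.34 for cytokines, -0.12 and -0.039 for DAC uptake, -0.33 and 0.022 for hypoxia, and 0.093 and 0.27 for matrix genes. With replicates 1 and 3 alone, interferon signalling had 0.10 and cytokines 0.24, and with length and GC removed cytokines had 0.12. Medians that stayed within that spread also varied with 1 library left out. They lay between 0.36 and 1.04 for interferon-inducible GTPases, 0.30 and 0.60 for ISG15 conjugation, and 0.11 and 0.24 for MHC class I. Genes near 0 changed sign. With length and GC removed Tet3 had -0.00734, Mlana 0.035 and Sox10 -0.041. Tyr had -0.042 with length removed, -0.014 with replicates 1 and 3 and -0.0086 to 0.041 with 1 library left out, and so did Sox10 with -0.077 to 0.14 and Brdt with -0.33 to 0.20. The causes of these shifts were not tested. Low counts limit the precision of weakly expressed genes.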
